A study of Mus musculus with 30 samples.

Results

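Interleukin-34 (Il34), colony-stimulating factor 1 (Csf1) and the receptors of the colony-stimulating factors were followed in mouse forebrain and in cells isolated from it with an antibody to CD11b. The set holds 9 of the 51752 genes in the deposited count table and was chosen by symbol: Il34, Csf1, Csf1r, Ptprz1, Csf2ra, Csf2rb, Csf3r, Flt3 and Kit. RNA was measured in 30 libraries from 15 animals, 1 library of whole forebrain and 1 of CD11b isolates from each. In the first experiment, 3 Il34 knockout animals (KO) were set against 4 heterozygotes (Het), so the controls of the deletion also carry a disrupted copy of the gene. In the second, 4 wild-type animals given a blocking antibody against IL34 (anti-IL34) were set against 4 wild-type controls that had received an antibody to gp120 (anti-gp120). The KO arm had 1 male and 2 females, the anti-IL34 arm 3 males and 1 female, and the Het and anti-gp120 arms 2 of each sex. The labels do not give the age, the strain, the dose and schedule of the antibodies, or which part of Il34 was deleted.

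IL-34 and CSF-1 are secreted ligands that share the receptor CSF1R, a tyrosine kinase that microglia and other macrophages need to survive. In the brain IL-34 is made mainly by neurons, whereas CSF-1 comes from glia and other cells, and PTPRZ1, a receptor phosphatase of astrocytes and oligodendrocyte precursors, has been described as a second receptor of IL-34. The remaining receptors answer to related growth factors: CSF2RA and CSF2RB form the receptor of GM-CSF, CSF3R binds G-CSF, FLT3 binds FLT3 ligand, and KIT binds stem cell factor.

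Library totals ran from 15064391 to 75158213 counts in forebrain and from 15755836 to 50541164 in the isolates. Levels below are CPM, counts scaled to library size with TMM over all libraries, and differences are log2 fold changes from edgeR's quasi-likelihood test with sex as a covariate. A gene passed the test where its Benjamini-Hochberg adjusted p, taken over all genes tested, was under 0.05. All 9 genes passed the filter on low counts in every comparison. The summed level of the microglia marker list was 11720 to 21350 CPM in the control isolates and 254.7 to 535 CPM in the control forebrains. Itgam, which encodes CD11b, had at most 3 counts in any library; its span is overlapped on the same strand by Gm49368. The isolates also held RNA of other cells: the summed astrocyte list ran from 3145 to 19440 CPM across the 15 isolates, within the control arms alone from 3145 to 18900.

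In forebrain, 3 of the 9 genes passed the test for deletion, Il34, Csf1r and Csf3r, all lower in KO, against 0.62% of all genes tested. With the antibody 2 passed, Csf1r and Csf3r, both lower, against 0.717% of all genes. In the isolates Csf1r and Csf3r passed for deletion, both lower, where 5.37% of all genes did. None of the 9 passed for the antibody in the isolates by edgeR, where 0.626% of all genes did; 4 of them had an unadjusted p under 0.05 there, as 25.9% of all genes did, and DESeq2 called 1, Csf1r. In KO isolates 32.6% of all genes had an unadjusted p under 0.05. Csf1, Ptprz1, Csf2ra, Csf2rb, Flt3 and Kit passed in none of these 4 comparisons by edgeR; in KO isolates DESeq2 called 5 of the 9, with Ptprz1, Csf2ra and Csf2rb added, among 3887 genes that it called over the whole table against 976 by edgeR.

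The calls in isolates turned on single animals. The deletion effect itself moved little for the members that passed. With 1 animal left out it stayed at -1.655 to -1.423 for Csf1r and -1.573 to -1.315 for Csf3r. Among the anti-gp120 isolates that of animal 15 stood apart, with an astrocyte list sum of 18900 CPM where the other 3 held 4862 to 9420 CPM, and with the lowest level of its arm for every member but Il34 and Ptprz1. Without it 6 of the 9 genes passed for the antibody in isolates, namely Csf1r, Csf1, Csf2rb, Csf3r and Flt3, all lower, and Ptprz1, higher, and the genes that passed over the whole table rose from 110 to 6905; without any other animal of either arm 0 of the 9 passed. For deletion in isolates, leaving out Het animal 1, whose astrocyte list sum of 11480 CPM was the highest of its arm, gave 6 of the 9 that passed, and leaving out Het animal 21 gave 5. Of all genes tested, 5756 and 3115 passed in these fits, against 976 with all animals. Leaving out Het animal 20 or 23, or any of the KO animals, gave 0, as it did over all genes of the table. KO animal 3 is the only male of its arm, and anti-IL34 animal 11 the only female of its arm. Without either, the sex term of the treatment comparison rests on the control arm alone. For the antibody in isolates no gene of the table passed without anti-gp120 animal 7 or anti-IL34 animal 10, so the counts of marker and pathway genes given for isolates go to 0 in these fits as well. The summed choroid plexus list was 88.0 to 209.7 CPM in anti-gp120 and 179.8 to 3519 CPM in anti-IL34 isolates. The part of astrocyte and choroid plexus RNA in these differences was not tested.

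**Figure D1:**
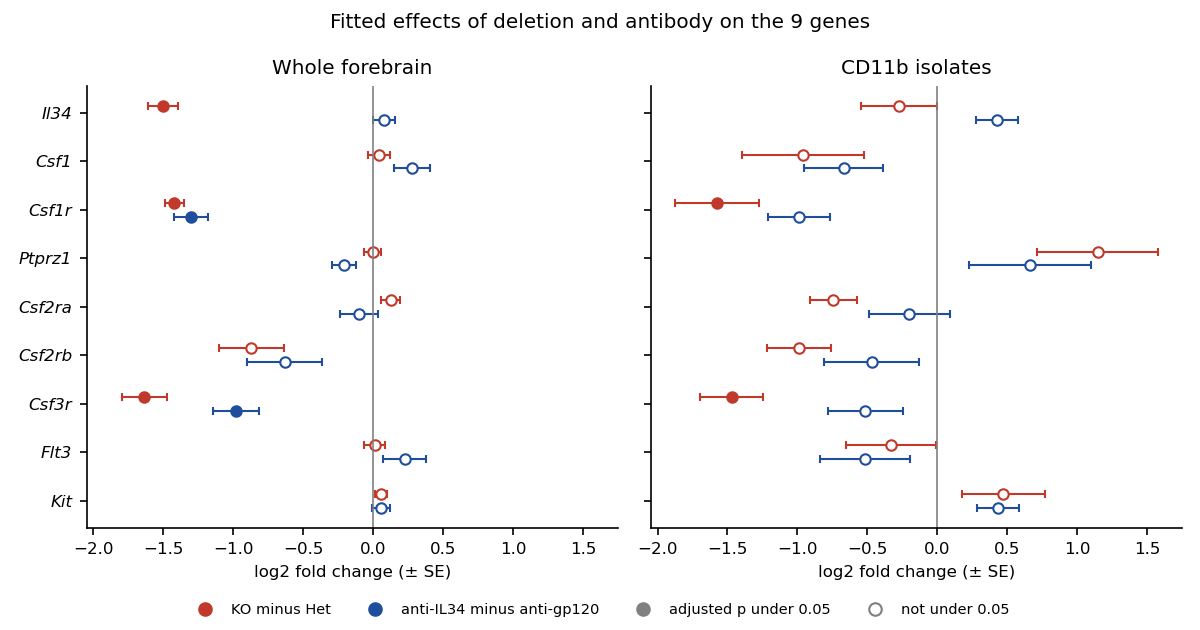
Log2 fold change (x axis, bars 1 SE) of each of the 9 genes for KO minus Het and anti-IL34 minus anti-gp120, in forebrain on the left and CD11b isolates on the right; filled points have an adjusted p under 0.05. Csf1r and Csf3r lie to the left of 0 in all 4 comparisons, whereas Il34 is far from 0 only for deletion in forebrain, at -1.50.

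The targeted ligand, Il34 (ENSMUSG00000031750, minus strand, GRCm38 chr8:110741829-110805924), was lower in every KO forebrain than in every Het forebrain. It stood at 23.1, 19.0, 18.6 and 23.2 CPM in the Het forebrains and at 6.55, 7.52 and 8.31 CPM in the KO forebrains. Of all genes tested, 8.33% had KO and Het forebrains that did not overlap in either direction; among the 9 members these were Il34, Csf1r, Csf2rb and Csf3r. The log2 fold change of Il34 was -1.50 (SE 0.105, adjusted p = 1.01e-05), so KO held 35.3% of the Het level, and it passed in 7 of 7 fits that left out 1 animal. The reads that remained, 185 to 414 counts per KO forebrain, were counted over the whole gene span, and whether they lie in the deleted part cannot be read from a count per gene. The genes Gm15894 and Gm15895 on the other strand of the span held 150 and 50 counts over the 30 libraries against 19989 for Il34.

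In forebrains given the antibodies the Il34 transcript did not pass the test. It was 35.7, 38.3, 35.5 and 30.5 CPM with anti-gp120 and 34.9, 36.7, 39.4 and 34.7 CPM with anti-IL34, and the arms overlapped. The difference was 0.07 on the log2 scale (SE 0.0777, adjusted p = 0.999). The effect of deletion minus that of the antibody on Il34 was -1.58 (SE 0.135, adjusted p = 2.45e-05), and Il34 was the only one of the 9 to pass this comparison, as 0.0101% of all genes did. It passed in 15 of 15 fits that left out 1 animal.

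In the isolates Il34 was low and its arms overlapped. Het isolates held 8.01, 10.3, 7.22 and 5.06 CPM and KO isolates 7.04, 5.17 and 6.41 CPM, a log2 difference of -0.27 (SE 0.270, adjusted p = 0.493) whose sign rested on Het animal 20, without which it was 0.05. With anti-gp120 the isolates held 10.2, 12.9, 17.6 and 13.1 CPM and with anti-IL34 15.6 to 19.2 CPM, which overlapped (log2 difference 0.43, SE 0.151, adjusted p = 0.158). The KO forebrains, at 7.46 ± 0.883 CPM (SD, n = 3), lay within the range of the Het isolates. The deletion effect in isolates minus that in forebrain was 1.27 for Il34 (SE 0.288, adjusted p = 0.0423), and the other member to pass here was Csf2ra, against 2.98% of all genes. Fitted with each animal as a block, neither passed, with an adjusted p of 0.118 for both, and each passed in 2 of 7 fits that left out 1 animal. For the antibody, 0 of the 9 differed between tissues by edgeR, where 0.0924% of all genes did; 2 had an unadjusted p under 0.05 (21.1% of all genes), and DESeq2 called 0.

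Csf1, the other CSF1R ligand, did not pass the test in forebrain under either treatment. It held 12.9 to 14.9 CPM in Het, 13.7 to 15.7 CPM in KO, 10.6 to 14.6 CPM with anti-gp120 and 11.9 to 21.3 CPM with anti-IL34. Its log2 difference was 0.04 for deletion (SE 0.0779, adjusted p = 0.944) and 0.27 for the antibody (SE 0.128, adjusted p = 0.999). The isolates held far more of it, with wide spread between animals. Het isolates had 108.1, 179.7, 363 and 280.8 CPM and KO isolates 94.9, 116.7 and 156.6 CPM. Anti-gp120 isolates had 565.2, 414.7, 600.4 and 284 CPM and anti-IL34 isolates 349.7, 240.5, 356.3 and 211.2 CPM. The treated arms lay toward the low end but overlapped their controls, with log2 differences of -0.96 for deletion (SE 0.433, adjusted p = 0.17) and -0.67 for the antibody (SE 0.283, adjusted p = 0.188). For the deletion the value moved to -0.57 without Het animal 21. Csf1 passed only without Het animal 1 for the deletion (adjusted p = 0.0461) and only without anti-gp120 animal 15 for the antibody (adjusted p = 0.013).

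**Figure D2:**
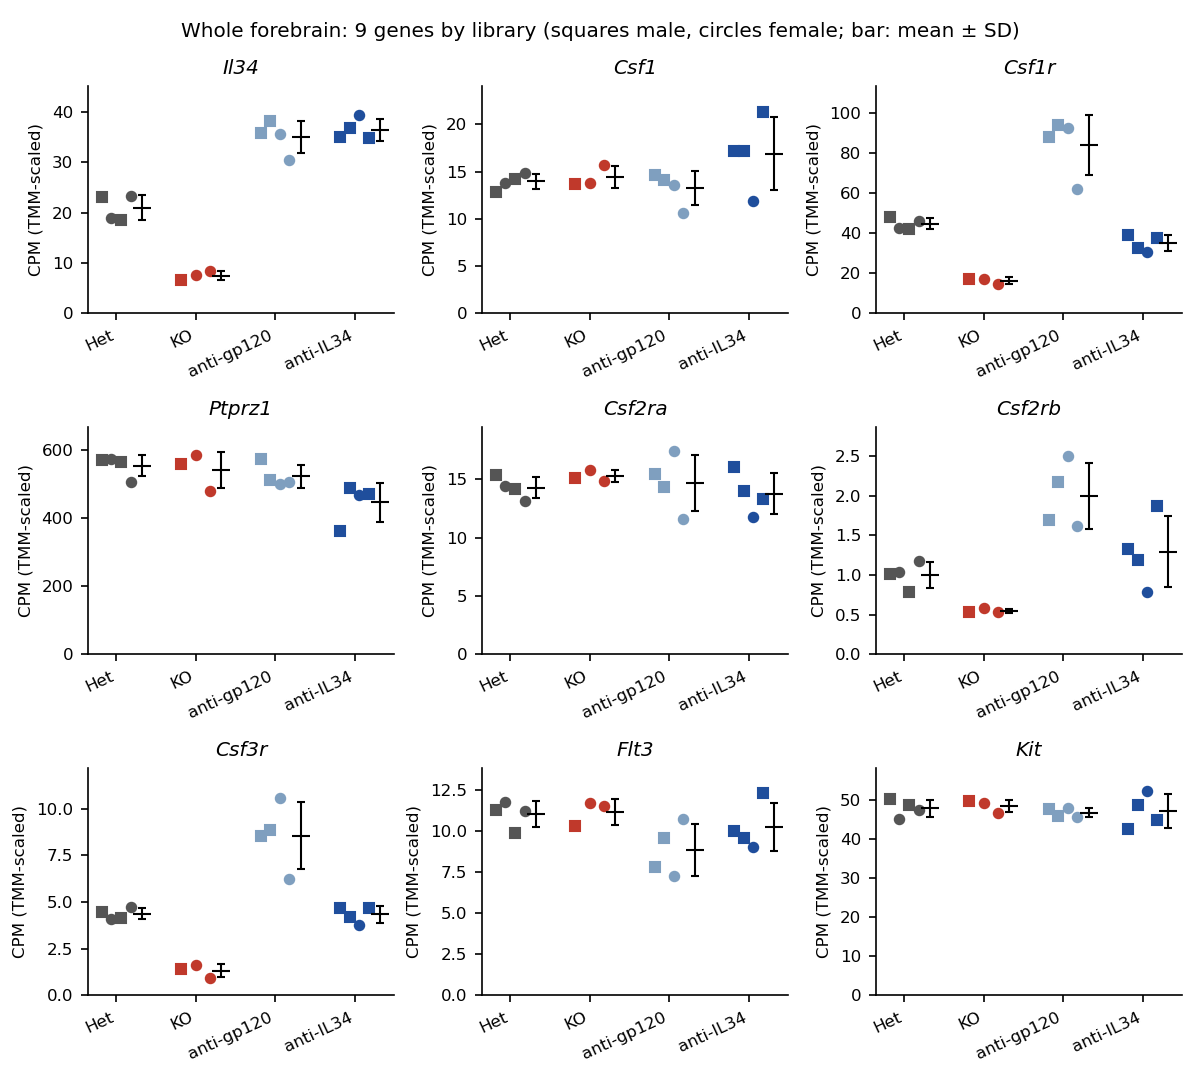
CPM of the 9 genes in each whole-forebrain library (y axes from 0), by arm, with squares for males, circles for females and bars for mean ± SD. Il34 is lowest in KO and overlaps between the antibody arms; Csf1r and Csf3r are lower in KO than in Het and lower with anti-IL34 than with anti-gp120; Kit lies between 42.5 and 52.3 CPM throughout.

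Csf1r, the receptor of both ligands (GRCm38 chr18:61100598-61132149, plus strand), fell in forebrain under both treatments. Het forebrains held 48.3, 42.6, 42.4 and 46.1 CPM and KO forebrains 17.1, 17.4 and 14.4 CPM. With anti-gp120 the values were 88.2, 94.1, 92.5 and 62.2 CPM and with anti-IL34 39.1, 32.8, 30.5 and 37.7 CPM. Neither pair of arms overlapped; for the antibody, 3.45% of all genes had arms that did not overlap, and the members were Csf1r, Ptprz1 and Csf3r. The log2 fold change was -1.42 for deletion (SE 0.066, adjusted p = 2.74e-07) and -1.30 for the antibody (SE 0.119, adjusted p = 0.000355), which left 37.3% and 40.6% of the control level. It passed in 7 of 7 and 8 of 8 fits that left out 1 animal. In bulk RNA, fewer cells of a type and less RNA per cell cannot be told apart. The deletion effect minus the antibody effect on Csf1r was -0.14 in forebrain (SE 0.155, adjusted p = 1). In isolates it was -0.57 (SE 0.337, adjusted p = 1), where 0 of all genes passed by edgeR, 1 of the 9 members had an unadjusted p under 0.05 (3.95% of all genes) and DESeq2 called 0 members.

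In the isolates Csf1r was again lower in both treated arms. Het isolates held 3099, 3566, 5299 and 3984 CPM and KO isolates 1301, 1373 and 1273 CPM. Anti-gp120 isolates held 5737, 4620, 5357 and 3818 CPM and anti-IL34 isolates 2388, 2054, 3064 and 2206 CPM. Every treated isolate lay below every control of its experiment, as was so for 20% of all genes with deletion and 10.8% with the antibody. The log2 fold change for deletion was -1.57 (SE 0.301, adjusted p = 0.0346), but the gene passed in only 2 of 7 fits that left out 1 animal. The adjusted p was up to 0.32 without KO animal 3, the only male of its arm. The fold change itself stayed at -1.655 to -1.423 over these fits. For the antibody it was -0.99 (SE 0.223, adjusted p = 0.0749), and Csf1r passed by DESeq2 (adjusted p = 9.55e-05), without the low-count filter (0.0214), without sex terms (0.0312) and with all 15 isolates in the fit (0.0221).

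Other microglial RNA moved with Csf1r. Of the 16 microglia markers tested, 14 were lower in KO forebrain (0.62% of all genes passed) and 14 with the antibody in forebrain (0.717%). In isolates 16 were lower in KO (5.37%) and 8 with the antibody (0.626%), and none was higher in any comparison. DESeq2 called 15, 16, 16 and 13 in that order, and the counts by edgeR in isolates went to 0 without single animals named above. Their median log2 fold changes in that order were -1.31, -1.42, -1.57 and -1.09, against medians over all genes of -0.00, 0.00, 0.02 and 0.06. Csf1r was therefore also expressed relative to the list, as its log2 CPM minus the mean log2 CPM of the 17 markers in the table. This measure was 2.46 ± 0.0227 (SD, n = 4) in Het and 2.21 ± 0.140 (SD, n = 3) in KO forebrain, and all 3 KO values lay below all 4 Het values. The difference of -0.25 had a two-sided exact permutation p of 0.0571, the smallest that 3 against 4 libraries can give (adjusted over 6 comparisons, 0.171).

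For the other treatment comparisons the change of Csf1r relative to the 17 markers was -0.03 for deletion in isolates (exact permutation p = 0.629), 0.04 for the antibody in forebrain (exact permutation p = 0.457) and 0.12 for the antibody in isolates (exact permutation p = 0.0571). The list holds Itgam, which was barely counted and pulls a list change toward 0. Without it the differences were -0.17 and 0.05 for deletion in forebrain and isolates, and 0.13 and 0.21 for the antibody, a choice made after seeing the data, so the antibody in isolates then had the widest difference of the 4. It had an exact permutation p of 0.0286, the smallest that 4 against 4 can give, and an adjusted p of 0.171.

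**Figure D3:**
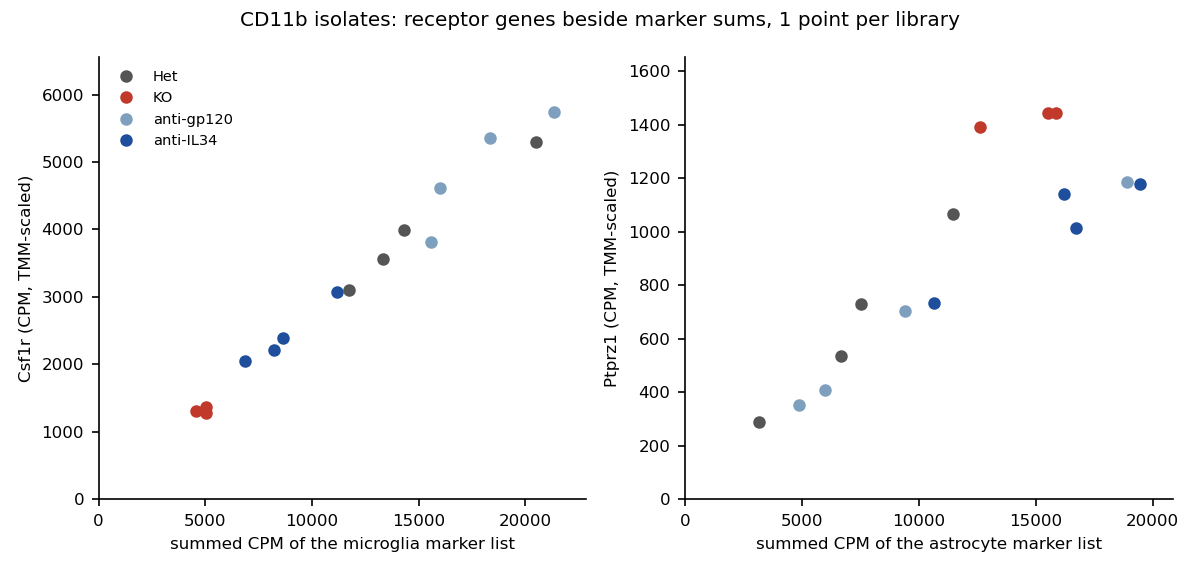
CD11b isolates, 1 point per library: Csf1r CPM against the summed CPM of the microglia list (left) and Ptprz1 CPM against the summed CPM of the astrocyte list (right), colored by arm, axes from 0. The 3 KO isolates have the lowest Csf1r, at 1273 to 1373 CPM, and the highest Ptprz1, at 1392 to 1445 CPM.

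Ptprz1, the phosphatase described as a further IL-34 receptor, did not pass in any of the 4 treatment comparisons. In forebrain it held 506 to 572.2 CPM in Het and 479.8 to 583.2 CPM in KO (log2 difference -0.00, SE 0.061, adjusted p = 0.995). All 4 anti-IL34 forebrains, at 360.5, 486.3, 466.7 and 468.7 CPM, lay below all anti-gp120 forebrains, at 572, 511.2, 499.5 and 505.6 CPM, a log2 difference of -0.21 (SE 0.0876, adjusted p = 0.946). The summed astrocyte list was 5745 to 7089 CPM in these anti-IL34 forebrains, lowest in animal 2, which was also lowest for Ptprz1, and 6923 to 7780 CPM with anti-gp120. By edgeR 0 of its 8 genes passed, 3 had an unadjusted p under 0.05 (4.86% of all genes) and DESeq2 called 0. The list median was -0.14, and the part of the list in the Ptprz1 values was not tested. In the isolates the direction was the opposite of that of Csf1r. Het isolates had 1067, 533.3, 287.5 and 729.9 CPM and KO isolates 1444, 1392 and 1445 CPM, with no overlap (log2 difference 1.14, SE 0.431, adjusted p = 0.134). Groups that did not overlap in either direction were found for 37.8% of all genes in this comparison. Anti-gp120 isolates had 353.6, 704, 409.4 and 1186 CPM and anti-IL34 isolates 1013, 1142, 734.3 and 1179 CPM (log2 difference 0.66, SE 0.434, adjusted p = 0.322). The last ran from 0.28 without anti-gp120 animal 1 to 1.06 without anti-IL34 animal 11.

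Marker lists of cells that express Ptprz1 are given beside it for the isolates. The summed astrocyte list was 3145 to 11480 CPM in Het and 12600 to 15880 CPM in KO, and 4862 to 18900 CPM with anti-gp120 and 10660 to 19440 CPM with anti-IL34. The summed oligodendrocyte precursor list was 298.1 to 1098 CPM in Het and 1250 to 1570 CPM in KO. None of the 8 astrocyte or 7 precursor markers was at 0 in any isolate. By edgeR none passed for deletion in isolates, where 3 of each list had an unadjusted p under 0.05, as 32.6% of all genes did. DESeq2 called 3 and 1, and the list medians were 0.95 and 1.01. With the antibody in isolates 0 of both lists passed, 0 had an unadjusted p under 0.05 (25.9% of all genes) and DESeq2 called 0. The list medians were 0.69 and 0.70 beside the 0.66 of Ptprz1. Neuronal lists had like medians in isolates, 1.04 for excitatory and 0.84 for inhibitory neuron markers with deletion and 0.93 and 0.80 with the antibody, and 0 of their genes passed by edgeR. For the excitatory list 3 and 2 had an unadjusted p under 0.05 in these comparisons and DESeq2 called 2 and 0; for the inhibitory list these were 0 and 1, and 0 and 1. The part of these lists in the Ptprz1 values was not tested. Of 12 genes for ligands, anchors and substrates of PTPRZ1, 0 passed edgeR's test in any of the 4 treatment comparisons. In KO isolates 7 had an unadjusted p under 0.05 (32.6% of all genes) and DESeq2 called 7. With the antibody in isolates these counts were 3 (25.9% of all genes) and 1. Ptn, one of the 12, encodes the ligand pleiotrophin. It was at 352 ± 115 CPM in the Het isolates (SD, n = 4) and at 719 ± 59.3 CPM in the KO isolates (SD, n = 3). The log2 difference was 1.06 (SE 0.281, adjusted p = 0.0809).

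Csf3r, the G-CSF receptor known mainly from neutrophils, was also lower in forebrain under both treatments. Het forebrains held 4.49, 4.10, 4.14 and 4.71 CPM and KO forebrains 1.42, 1.62 and 0.943 CPM, with 21 to 89 counts in KO. Anti-gp120 forebrains held 8.52, 8.87, 10.6 and 6.23 CPM and anti-IL34 forebrains 4.69, 4.22, 3.75 and 4.71 CPM. Neither pair of arms overlapped. The log2 fold change was -1.64 for deletion (SE 0.161, adjusted p = 0.000208) and -0.98 for the antibody (SE 0.165, adjusted p = 0.0198). The deletion call held in 7 of 7 fits that left out 1 animal, the antibody call in 3 of 8. For the antibody the adjusted p was up to 0.214 without anti-IL34 animal 11, the only female of its arm. The summed list of 12 neutrophil markers was at most 6.43 CPM in any forebrain, and 1.3 to 5.69 CPM in Het against 1.49 to 2.73 CPM in KO.

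In the control isolates Csf3r was the second most abundant of the 9 per length, after Csf1r; in KO isolates Ptprz1, at 191.3 ± 5.31 TPM (SD, n = 3), was above Csf3r, at 150.7 ± 2.60 TPM (SD, n = 3). Het isolates held 252.6, 331.5, 454.7 and 369.3 CPM and KO isolates 124.8, 119.3 and 134.5 CPM, with no overlap, as for 20% of all genes in this direction. The log2 fold change was -1.47 (SE 0.226, adjusted p = 0.0201). This call held in 2 of 7 fits that left out 1 animal, with an adjusted p up to 0.199 without KO animal 3, the only male of its arm. The fold change stayed at -1.573 to -1.315 over these fits. Anti-gp120 isolates had 665.2, 519.6, 609.4 and 357.3 CPM and anti-IL34 isolates 425.2, 306.2, 499 and 261.5 CPM, which overlapped (log2 difference -0.52, SE 0.266, adjusted p = 0.234; -0.34 without anti-gp120 animal 1 and -0.84 without anti-IL34 animal 11). The neutrophil list sum was 44.3 to 63.9 CPM in Het, 34.5 to 117.4 CPM in KO, 55.1 to 340.6 CPM with anti-gp120 and 163.7 to 578.9 CPM with anti-IL34. Its part in the Csf3r values of the antibody arms was not tested.

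Csf2rb, the shared signalling chain of the GM-CSF, IL-3 and IL-5 receptors, was near the detection limit in forebrain, with 12 to 130 counts per library. Het forebrains held 1.01, 1.04, 0.780 and 1.17 CPM and KO forebrains 0.533, 0.581 and 0.539 CPM. All KO values lay below all Het values, with a log2 difference of -0.87 (SE 0.231, adjusted p = 0.207). For the antibody in forebrain the arms overlapped, at a log2 difference of -0.63 (SE 0.269, adjusted p = 0.966). Het isolates held 58.8, 94.6, 114.4 and 103.8 CPM and KO isolates 46.2, 45.5 and 50.0 CPM, again without overlap, as for 20% of all genes in this direction. The log2 difference was -0.99 (SE 0.228, adjusted p = 0.0583), past 0.05 by DESeq2 (adjusted p = 0.00408). With the antibody the isolates overlapped, at 66.2 to 203.4 CPM for anti-gp120 and 79.6 to 127.8 CPM for anti-IL34 (log2 difference -0.47, SE 0.338, adjusted p = 0.36). It ran from -0.72 without anti-gp120 animal 15, the lowest (adjusted p = 0.0112), to -0.24 without anti-gp120 animal 8, and the adjusted p reached 0.727 without anti-gp120 animal 1. Csf2rb2, a nearly identical neighbor, can exchange reads with Csf2rb, so the split between the paralogs is uncertain; its log2 fold change in KO isolates was -1.19 (SE 0.241, adjusted p = 0.0414).

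Csf2ra, the chain that binds GM-CSF, did not pass in forebrain. It held 13.1 to 15.4 CPM in Het and 14.9 to 15.8 CPM in KO (log2 difference 0.12, SE 0.0701, adjusted p = 0.737). With the antibodies it held 11.6 to 17.4 CPM for anti-gp120 and 11.8 to 16.1 CPM for anti-IL34 (log2 difference -0.10, SE 0.135, adjusted p = 0.999). In the isolates it stood at 28.3, 37.0, 43.5 and 37.3 CPM in Het and 21.9, 23.0 and 20.4 CPM in KO. These did not overlap, as was so in this direction for 20% of all genes. The log2 difference was -0.74 (SE 0.166, adjusted p = 0.053, by DESeq2 0.0051). The effect in isolates minus that in forebrain was -0.83 (SE 0.193, adjusted p = 0.0453), which did not pass with the animal as a block. The antibody isolates overlapped, at 31.2 to 69.6 CPM for anti-gp120 and 36.0 to 60.5 CPM for anti-IL34 (log2 difference -0.20, SE 0.291, adjusted p = 0.65; -0.01 without anti-gp120 animal 1 and -0.47 without anti-IL34 animal 11).

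Promoter sequence is shown for 3 of these genes because they differed in forebrain: Csf3r fell with the microglial markers, whereas Csf2ra and Csf1 did not pass. The sequences are the 250 bases before the RefSeq start in GRCm38.p6, 5′ to 3′ on the gene's strand: chr4:126024409-126024658 (plus strand) for Csf3r, chr19:61228419-61228668 (minus strand) for Csf2ra and chr3:107760470-107760719 (minus strand) for Csf1. Capitals mark GAGGAA, searched on both strands, the core of sites for PU.1, a transcription factor of myeloid cells, and of related ETS factors.
Csf3r: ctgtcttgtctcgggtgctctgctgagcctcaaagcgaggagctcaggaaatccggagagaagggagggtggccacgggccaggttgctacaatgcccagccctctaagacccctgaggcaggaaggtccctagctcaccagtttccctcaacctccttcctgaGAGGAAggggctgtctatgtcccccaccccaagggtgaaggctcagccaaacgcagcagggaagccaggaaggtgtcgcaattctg
Csf2ra: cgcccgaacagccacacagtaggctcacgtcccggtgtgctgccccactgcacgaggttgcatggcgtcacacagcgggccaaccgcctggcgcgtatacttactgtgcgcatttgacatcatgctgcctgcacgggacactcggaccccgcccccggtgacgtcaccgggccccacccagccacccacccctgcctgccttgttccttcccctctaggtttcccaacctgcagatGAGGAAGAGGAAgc
Csf1: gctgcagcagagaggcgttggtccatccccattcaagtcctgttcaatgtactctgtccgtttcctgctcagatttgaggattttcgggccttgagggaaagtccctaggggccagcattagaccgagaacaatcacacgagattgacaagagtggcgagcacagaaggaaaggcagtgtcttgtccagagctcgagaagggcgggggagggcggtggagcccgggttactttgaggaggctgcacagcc
The motif was found 1 time for Csf3r, with its first base at -86 from the RefSeq start, and 2 times side by side for Csf2ra, at -14 and -8. It was not found in the Csf1 window. The GENCODE M21 starts, 126024550 for Csf3r and 61228429 for Csf2ra, lie inside these windows. By them the Csf3r match and the -8 match of Csf2ra lie within the gene, and the -14 match spans its start. GAGGAA is present in 23.3% of the 32851 RefSeq windows of this length, and a match is a description of the letters only. Of the other motifs searched on both strands, GGGCGG was found 2 times for Csf1 and 1 time for Csf2ra (32.7% of all windows hold it), and TATAAA (12.4%), TGACTCA (4.46%) and GAGGAAGT (2.44%), which contains GAGGAA, in none of the 3. Among windows not shown, both of Kit held GAGGAA 1 time (at -223 and -227), and those of Flt3 and Ptprz1 did not hold it. No entry was found for Il34 or Csf2rb.

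Flt3 and Kit, receptors of early hematopoietic cells that are also transcribed in neurons, did not pass in any treatment comparison. In forebrain Flt3 held 9.88 to 11.8 CPM in Het, 10.3 to 11.7 CPM in KO, 7.27 to 10.7 CPM with anti-gp120 and 9.02 to 12.3 CPM with anti-IL34. The log2 differences of Flt3 in forebrain were 0.01 for deletion (SE 0.0751, adjusted p = 0.99) and 0.22 for the antibody (SE 0.153, adjusted p = 0.999). Kit was among the steadiest of the set, with a coefficient of variation of 2.65% to 9.2% within the 4 forebrain arms. Its forebrain log2 differences were 0.05 for both deletion (SE 0.0421) and antibody (SE 0.0626), neither of which passed. In isolates Flt3 was at 1.25 to 3.36 CPM and Kit at 7.96 to 22.6 CPM over all arms. The isolate differences were -0.33 and -0.52 for Flt3 and 0.47 and 0.43 for Kit, for deletion and antibody, with adjusted p-values of 0.483, 0.299, 0.29 and 0.158. Single animals moved them: for deletion Kit was at 0.16 without KO animal 3 and at 0.87 without Het animal 20, and Flt3 at -0.54 and -0.01 without the same animals. The antibody difference of Flt3 was -0.76 when anti-IL34 animal 11 was left out and -0.35 when anti-gp120 animal 8 was.

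**Figure D4:**
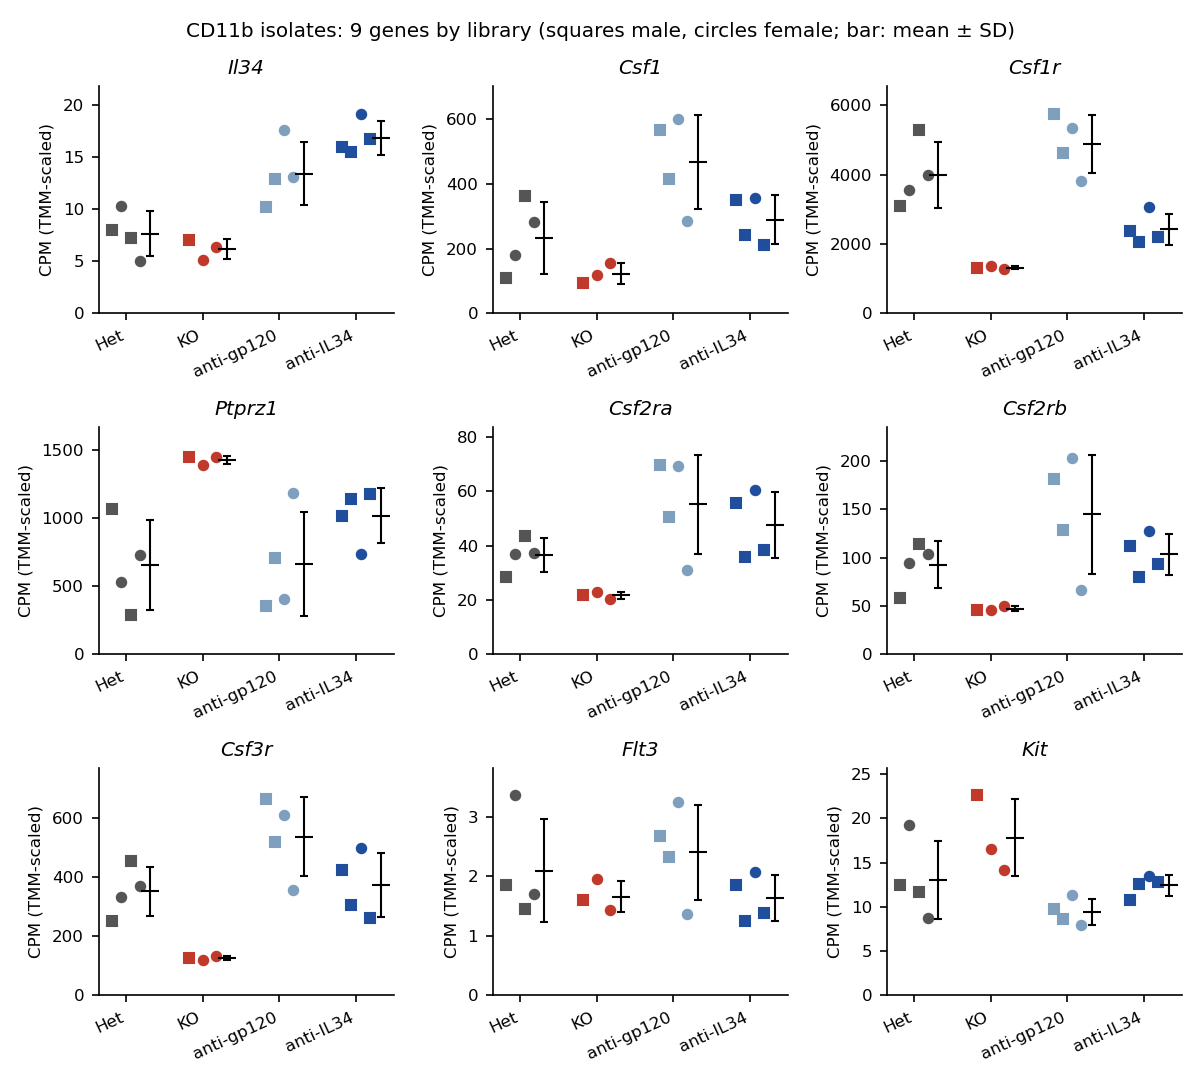
CPM of the 9 genes in each CD11b-isolate library (y axes from 0), by arm, with squares for males, circles for females and bars for mean ± SD. Csf1r, Csf2ra, Csf2rb and Csf3r in KO lie below all Het values and Ptprz1 in KO lies above them. Of all genes, 37.8% do not overlap in either direction in this comparison. The spread between control animals is wide, for example 31.2 to 69.6 CPM for Csf2ra with anti-gp120.

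Between tissues, 8 of the 9 genes passed the test in the 8 control animals (Het and anti-gp120 together), where 83.5% of all genes did. Csf2rb, Csf1r, Csf3r, Csf1 and Csf2ra were higher in isolates than in forebrain, by 82.1-fold, 71.8-fold, 71.3-fold, 24.2-fold and 3.1-fold (log2 6.36, 6.17, 6.16, 4.59 and 1.63; SE 0.255, 0.189, 0.184, 0.286 and 0.164). Flt3, Kit and Il34 were lower in isolates by 4.49-fold, 4.28-fold and 2.7-fold (log2 -2.17, -2.10 and -1.43; SE 0.194, 0.138 and 0.134). Ptprz1 differed by 0.29 (SE 0.253, adjusted p = 0.294). The highest adjusted p among the 8 was 1.02e-07, for Csf2ra, and all 8 passed with each animal as a block.

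Levels of different genes were compared per length, in the same 8 controls. These pool the Het and anti-gp120 arms, which stood apart in forebrain for some members. Forebrain means were 8.72 TPM in Het and 14.65 TPM with anti-gp120 for Il34, and 37.9 and 71.42 TPM for Csf1r. On the deposited TPM scale, which divides by the whole gene span, the forebrain order was Csf2ra (86.7 ± 9.23, SD, n = 8), Ptprz1 (81.2 ± 5.83), Csf1r (54.7 ± 19.1), Csf1 (18.7 ± 1.64), Kit (15.4 ± 0.610), Il34 (11.7 ± 3.25), Csf3r (8.68 ± 3.34), Flt3 (3.82 ± 0.660) and Csf2rb (1.43 ± 0.570). Neighbors in this order overlapped in their ranges over the 8 libraries, except Csf1r with Csf1, Csf3r with Flt3 and Flt3 with Csf2rb. Csf2ra spans 4473 bases and Il34 64096, and divided by exon length instead, as CPM per kilobase of exon, the order changed. Ptprz1 then led (38.8 ± 2.71), followed by Il34 (14.7 ± 4.11), Csf1r (11.5 ± 4.08), Kit (5.44 ± 0.187) and Csf2ra (5.18 ± 0.608). In isolates Csf1r (2640 ± 358.3 TPM), Csf3r (416.8 ± 101.7 TPM) and Csf1 (330.3 ± 142.9 TPM) led under both lengths, and Flt3 was last (0.615 ± 0.228 TPM).

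A list of 34 genes of CSF1R signalling in myeloid cells held kinases, adaptors and phosphatases that act below the receptor, and also Trem2, another receptor, and Spi1, whose product PU.1 drives transcription of Csf1r. Of 33 tested, 12 had an unadjusted p under 0.05 in KO forebrain (7.45% of all genes) and DESeq2 called 10. By edgeR 8 fell there and none rose, where 0.62% of all genes passed. Among those with the smallest p were Inpp5d (log2 fold change -0.82, SE 0.0877), Trem2 (-1.17, SE 0.181), Pik3cg (-1.02, SE 0.167), Lyn (-0.52, SE 0.091) and Spi1 (-0.95, SE 0.176). Inpp5d encodes a lipid phosphatase, Trem2 a microglial receptor, Lyn is a Src-family kinase, Pik3cg is a catalytic PI3-kinase subunit and Spi1 encodes PU.1. With the antibody 4 of 32 fell in forebrain, Inpp5d (-0.90, SE 0.105), Pik3cg (-1.21, SE 0.159), Trem2 (-1.23, SE 0.177) and Syk (-0.86, SE 0.170). There 0.717% of all genes passed. Of the list, 11 had an unadjusted p under 0.05 (4.86% of all genes) and DESeq2 called 9. In isolates 16 of 33 fell with deletion, among them Dok3 (-1.34, SE 0.146), where 5.37% of all genes passed. With the antibody in isolates 1 of 33 fell, Pik3cg (-0.96, SE 0.135), where 0.626% of all genes passed. For the antibody in isolates 19 had an unadjusted p under 0.05 (25.9% of all genes) and DESeq2 called 14. For deletion in isolates these counts were 23 (32.6% of all genes) and 20. The 16 rest on every animal but Het 1 and 21, since without any of the other 5 no gene of the whole table passed. The list medians were -0.08, -0.11, -0.90 and -0.46 in these 4 comparisons, against medians over all genes of -0.00, 0.00, 0.02 and 0.06. Many of these genes are themselves transcribed mainly in microglia in the brain.

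Of 12 other ligands and receptor chains, 6 or 7 were tested in each treatment comparison. The only one to pass by edgeR was Csf2rb2 in KO isolates, where 5.37% of all genes passed and DESeq2 called 2 of the list. In forebrain 1 had an unadjusted p under 0.05 for deletion (7.45% of all genes) and 1 for the antibody (4.86%). With the antibody in isolates 0 did (25.9%), and DESeq2 called 0 in all of these. Kitl, the ligand of KIT, was at 84.4 ± 2.81 CPM in the Het forebrains (SD, n = 4) and at 88.5 ± 1.69 CPM in the KO forebrains (SD, n = 3). Csf2 and Csf3, which encode GM-CSF and G-CSF, were scarcely counted, with forebrain means of 0.00921 CPM or less for Csf2 in each arm and 0.019 CPM or less for Csf3.

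Over the 30 libraries the closest profile to that of Csf1r was Laptm5, with a root mean square difference of 0.146 log2 units after centring. Laptm5 encodes a lysosomal membrane protein and belongs to the microglia marker list used above. Next were Selplg (0.181) and Vav1 (0.211). The median over 16042 genes was 3.21. Centring was over both tissues, so these distances also hold the step between isolates and forebrain. In controls that step was 6.17 log2 units for Csf1r and 6.11 for Laptm5. The distances do not single out the effect of the arms. Csf3r was closest to Slc11a1 (0.229), Itgb2 (0.23) and Mpeg1 (0.269), and Csf2rb to Pik3ap1 (0.251), Ptprc (0.299) and Itgb2 (0.308). Ptprz1 was closest to Gramd2b (0.146), Scd2 (0.149) and Abhd3 (0.15). Csf1 was closest to Relb (0.266), Csf2ra to Coro1a (0.18), Kit to Cers4 (0.17) and Flt3 to Gm17276 (0.318). For Il34 the closest, 2210408F21Rik, was at 0.643, against a median of 1.06.

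The control arms of both experiments were also set side by side, although the genotype, the antibody and the experiment differ between them and cannot be told apart. In forebrain 4 of the 9 genes passed, all lower in Het than with anti-gp120, against 0.817% of all genes. The log2 fold change of Il34 was -0.75 (SE 0.0875, adjusted p = 0.00206), so the Het level was 59.4% of that with anti-gp120. Csf1r was lower by -0.92 (SE 0.103, adjusted p = 0.00153), Csf3r by -0.98 (SE 0.139, adjusted p = 0.00632) and Csf2rb by -1.01 (SE 0.190, adjusted p = 0.0334), the last in only 1 of 8 fits that left out 1 animal. The arms of each of these 4 genes did not overlap, as was so for 7.47% of all genes. The microglia list sum was 254.7 to 291.6 CPM in Het forebrains and 415.9 to 535 CPM with anti-gp120. Of 8 choroid plexus markers 4 were higher in Het forebrains (list median 1.48), with sums of 485.6 to 602.7 CPM in Het and 241.7 to 377.5 CPM with anti-gp120; their part in these values was not tested. Csf1r relative to the microglia list differed by -0.07 (exact permutation p = 0.2).

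In isolates none of the 9 passed for Het against anti-gp120 by edgeR, where 1.94% of all genes did. The unadjusted p was under 0.05 for Il34, Csf1 and Csf3r, and for 9.15% of all genes, and DESeq2 called 0. Il34 was 57.2% of the anti-gp120 level, with a log2 difference of -0.80 (SE 0.248, adjusted p = 0.252), and Csf1r differed by -0.29 (SE 0.297, adjusted p = 0.884). The summed choroid plexus list was 2811 to 6013 CPM in Het isolates and 88.0 to 209.7 CPM with anti-gp120. The neutrophil list sum was 44.3 to 63.9 CPM in Het isolates and 55.1 to 340.6 CPM with anti-gp120, at a list median of -1.59. By edgeR 0 of the 9 neutrophil markers tested passed, 8 had an unadjusted p under 0.05 and DESeq2 called 7. The part of both lists in these values was not tested.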

How the data were processed

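Per the labels, RNA came from TRIzol extraction and libraries from the SMART-Seq v4 kit. The submitters' processing notes name STAR 2.7.5c, featureCounts 1.6.3, R 4.4.0 and the build GRCm38; settings and strand use are not given in the sources used here. The authors deposited raw read counts per gene, a gene length in bases, and TPM per gene. That length equalled the GENCODE M21 gene span, introns included, for 51183 of 51498 matched genes, so intronic reads can enter a count, and the deposited TPM equalled counts over that length. A coding gene inside another on the same strand had 0 counts in 653 of 655 cases, so overlap can hide a gene. Irf8 had 0 counts in every library, and Fcrls was not matched by symbol. Of the deposited per-sample columns, 6 of counts and 6 of TPM matched no labelled sample and were not used.

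Counts were tested with edgeR 4.0.16 (TMM, low-count filter, quasi-likelihood fit, sex as covariate, the libraries of the arms compared) in R 4.3.3, with Benjamini-Hochberg adjustment over all genes tested; DESeq2 1.42.0 was an alternative. The scripts were tested on simulated counts. Fits with both tissues were repeated with the animal as a block: tissues come from the same animal, and deviations of its 2 libraries correlated at a median of 0.213 (0.0957 to 0.381, above 0.1 in 14 of 15). Log2 CPM used a prior count of 2. All 9 members are described; pathway genes are named where they passed, at most 6 per list and comparison (a gene that this rule names is not reported here), and pattern neighbors are the 3 nearest; Ptn, Kitl, Csf2 and Csf3 were named after their values were seen. The members and lists were chosen with earlier results of these data known. Totals of at least 15064391 counts per library set the counting precision; arms of 3 or 4 animals limit it further.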

Additional observations from a re-analysis of the deposited data

Results flagged for a closer look

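Among groups of 4 libraries, 54 were checked for a single library far from the rest, and 3 were found, all of Ptprz1 in forebrain; chance flags about 1 in 20 groups. Het animal 23 was low at 506 CPM, where the other 3 held 564.8 to 572.2 CPM. Anti-gp120 animal 1 was high at 572 CPM, where the others held 499.5 to 511.2 CPM. Anti-IL34 animal 2 was low at 360.5 CPM, where the others held 466.7 to 486.3 CPM.

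A test of the difference between effects passed in 3 cases. The deletion effect in isolates minus that in forebrain was 1.27 for Il34 and -0.83 for Csf2ra on the log2 scale. Both calls were lost with the animal as a block (adjusted p = 0.118), tissues being paired within animals, and each passed in only 2 of 7 fits that left out 1 animal. The effect of deletion minus that of the antibody in forebrain was -1.58 for Il34.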

How the results depend on the processing

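No value that passed the test changed sign under the alternatives run. Of the 9 genes, DESeq2 called 5 for deletion in isolates and 1 for the antibody in isolates; without the low-count filter 4 and 1 passed, without sex terms 4 and 1, and with all 15 isolates in the antibody fit 1. Without the filter 2 passed for the tissue difference of the antibody and 1 for Het against anti-gp120 in isolates. With the replicate block by animal, 0 members and 0 genes passed for the tissue difference of deletion, and 0 genes for that of the antibody; it changed no other call on the 9.

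Counts over all genes moved more. By DESeq2 they were 3887 and 2015 for deletion and antibody in isolates, 198 for the antibody in forebrain, 3635 and 1092 for the tissue differences, 28 and 35 for deletion minus antibody in forebrain and isolates, and 425 and 748 for Het against anti-gp120. Without the filter they were 381 and 1993 for deletion in forebrain and isolates, 349 and 819 for the antibody, 1569 and 1352 for the tissue differences, 114 and 1 for deletion minus antibody, and 919 and 720 for Het against anti-gp120. Without sex terms they were 2189 and 983 in isolates, 2400 and 222 for the tissue differences and 4 for deletion minus antibody in forebrain. With all 15 libraries of the tissue they were 2734 and 988 in isolates and 204 for the antibody in forebrain, and with RLE size factors 48 for the tissue difference of the antibody. The cause was not tested.

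When each animal was left out in turn, members called stayed at 3 for deletion in forebrain, at 8 between tissues and at 1 for deletion minus antibody in forebrain, and at 0 for that difference and for Het against anti-gp120 in isolates. They ran from 0 to 6 for deletion and for the antibody in isolates, 1 to 2 for the antibody in forebrain, 0 to 4 and 0 to 3 for the tissue differences, and 3 to 4 for Het against anti-gp120 in forebrain. Genes called ran from 55 to 117 and 0 to 5756 for deletion in forebrain and isolates, 25 to 126 and 0 to 6905 for the antibody, 16202 to 17112 between tissues, 0 to 5688 and 0 to 5565 for the tissue differences, 2 to 33 and 0 to 5 for deletion minus antibody, and 67 to 415 and 67 to 329 for Het against anti-gp120. Csf1r relative to the markers ran from -0.297 to -0.167 and -0.0624 to 0.013 for deletion in forebrain and isolates, and from -0.0015 to 0.0759 and 0.0761 to 0.154 for the antibody. For the antibody in isolates it was 0.227 without the complement genes and 0.214 without Itgam, the latter chosen after seeing the data, both at an exact permutation p of 0.0286. Depth limits Csf2rb and Csf3r in forebrain, which had as few as 12 and 21 counts in a library.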
